A study of Mus musculus with 62 samples.

Results

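The cholesterol synthesis and SREBP2 pathway was followed through 31 genes, chosen by symbol from the 47643 entries of a table of transcript levels in mouse neocortex. The genes cover 7 enzymes of the mevalonate steps, 12 enzymes that lead from squalene to cholesterol, 6 genes of sterol sensing and transport, and 6 genes of the isoprenoid branch. All 31 were found and all 31 were tested. Female mice, 2 months old, received melanoma cells that bring on cachexia (CAC), the loss of muscle and fat seen in some cancers, received melanoma cells without this effect (NCAC), or were mock injected (Con in the labels). Neocortex was taken 2, 4, 6 and 8 weeks later, which gave 12 groups and 62 libraries, with 7 libraries for CAC at 8 weeks and 5 in each other group. The design text names NCI Ath/nude mice, a host that lacks a thymus, whereas the sample labels name C57BL6/J, so the strain of these groups is uncertain. The melanoma lines are not named in the labels, which term each library a biological replicate.

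Cholesterol of the brain is made in the brain, because lipoproteins of the blood do not cross the blood-brain barrier, and much of it lies in myelin. Synthesis starts from acetyl-CoA, passes through mevalonate to farnesyl diphosphate, and divides there into a sterol branch that begins with squalene and an isoprenoid branch that yields dolichol, coenzyme Q tails and the lipids attached to prenylated proteins. When sterols in the endoplasmic reticulum are low, SCAP escorts SREBP2 to the Golgi, where the protein is cleaved into a transcription factor that activates the synthesis genes, and INSIG proteins hold SCAP back when sterols are high.

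Levels are in TPM, a length-scaled share of all transcripts in a library. Depth, estimated from the steps between low values, was 45.0 to 50.8 M reads, and a transcript with 2000 bases of exon at 1 TPM corresponded to 28.1 reads in the median library. Markers of excitatory cortical neurons were present in every library, with a summed level of 1640 to 3234 TPM. Striatum markers were present too, at 181 to 2307 TPM over the libraries, with group medians of 1212 to 1748 TPM. Choroid plexus markers summed to 19.6 to 3111 TPM. Marker genes set 5 libraries apart, each at least 3 log2 units away from the median library. Erythroid genes were higher by 4.21 in CAC 8 week replicate 3 and lower, at -3.00, in CAC 8 week replicate 4, and striatum genes were lower, at -3.53, in CAC 4 week replicate 1. Pituitary and hypothalamus genes were higher by 8.12 in mock 2 week replicate 5 and by 3.46 in NCAC 4 week replicate 1. Libraries of week 2, of CAC at 4 weeks and 4 of the 5 of NCAC at 4 weeks came from sequencing lane 3, and all others from lane 4, so arms shared a lane within weeks 2, 6 and 8.

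Mean levels over all 62 libraries ran from 5.06 TPM for Pdss1 to 225 TPM for Hmgcs1. Hmgcs1, the cytosolic hydroxymethylglutaryl-CoA synthase, was the highest of the 31, followed by Srebf2, which encodes SREBP2, at 122 TPM and the squalene synthase gene Fdft1 at 85.8 TPM. At the other end were Pdss1 and Pdss2, the subunits of the enzyme that makes the coenzyme Q tail, with Pdss2 at 5.37 TPM, and the sterol reductase gene Lbr at 7.88 TPM. Even the lowest level of a member in any library, that of Pdss1, corresponded to an estimated 193 reads.

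The CAC to mock comparison at 8 weeks asked how the pathway stands at the last week sampled. Of the 31 genes 12 fell and 1 rose, where 3.69% of all 14494 tested genes fell and 4.91% rose (8.6% in either direction, limma, adjusted p under 0.05). The fallen genes were 4 of 7 mevalonate enzymes, 7 of 12 sterol enzymes and Srebf2. Of the 6 isoprenoid genes 0 were called by limma, with 1 (Dhdds) at an unadjusted p under 0.05, and Srebf1 was the gene that rose. The median log2 fold change was -0.19 over the mevalonate genes, -0.29 over the sterol genes, -0.07 over the regulators and 0.08 over the isoprenoid genes, against 0.02 over all tested genes. Fold changes were computed on log2(TPM + 1), a scale that shrinks those of low genes, and each is given with its standard error (SE).

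**Figure D1:**
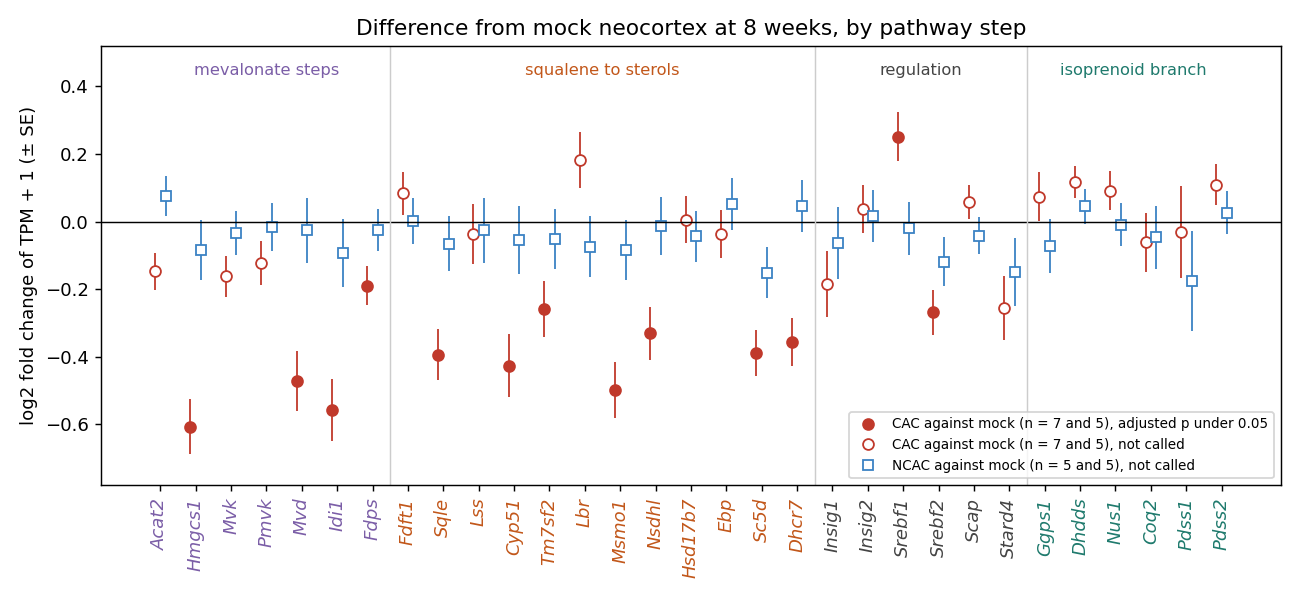
Log2 fold change of TPM + 1 (vertical axis, ± SE) against mock at 8 weeks for the 31 genes in pathway order (horizontal axis), for CAC and for NCAC, with filled symbols for an adjusted p under 0.05. The 12 filled symbols below 0 lie in the mevalonate and sterol steps and at Srebf2, the filled symbol above 0 is Srebf1, and no isoprenoid gene and no NCAC value is filled.

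Among the mevalonate enzymes Hmgcs1 changed most. It was at 276, 285, 263, 227 and 262 TPM in the mock libraries and at 145, 163 and 222 TPM (lowest, median and highest of 7) in the CAC libraries. Every CAC library lay below every mock library, and the group mean was 34.0% lower. Hmgcs1 fell by 0.61 (SE 0.08, adjusted p = 1.51e-06). Idi1, which interconverts isopentenyl and dimethylallyl diphosphate, was at 58.5, 53.2, 52.3, 43.9 and 52.7 TPM in mock and at 28.01, 35.0 and 43.9 TPM (lowest, median, highest) in CAC libraries. The highest CAC library just reached the lowest mock library, and Idi1 fell by 0.56 (SE 0.09, adjusted p = 5.19e-05), with a mean 32.1% lower. Mvd, the decarboxylase that makes isopentenyl diphosphate, was at 30.7, 31.04, 31.4, 27.8 and 30.1 TPM in mock and at 18.9, 20.1 and 26.3 TPM in CAC libraries, again without overlap. Mvd fell by 0.47 (SE 0.09, adjusted p = 0.00034). Fdps, the farnesyl diphosphate synthase before the branch point, was at 76.3 to 83.9 TPM in mock and at 65.1 to 80.5 TPM in CAC libraries and fell by 0.19 (SE 0.06, adjusted p = 0.0311). The thiolase gene Acat2 and the kinase genes Mvk and Pmvk were not called, at -0.15, -0.16 and -0.12 (adjusted p = 0.0841, 0.083 and 0.263).

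Along the sterol branch the fallen genes alternated with genes that were not called. The first enzyme, squalene synthase (Fdft1), was at 77.6 to 94.0 TPM in mock and at 75.3 to 103 TPM in CAC libraries, and was not called (log2 fold change 0.08, 95% interval -0.05 to 0.21). Sqle, the squalene epoxidase that follows it, was at 37.3, 36.4, 36.2, 30.2 and 33.7 TPM in mock and at 22.3, 24.9 and 32.4 TPM (lowest, median, highest) in CAC libraries. Sqle thus overlapped mock at its upper end, and it fell by 0.39 (SE 0.07, adjusted p = 0.00034). Lss, which closes the rings to give lanosterol, was not called at -0.04 (interval -0.21 to 0.14). Cyp51, the lanosterol demethylase, was at 42.2 ± 5.54 TPM in mock (SD, n = 5) and 31.2 ± 3.88 TPM in CAC libraries (n = 7), and it fell by 0.43 (SE 0.09, adjusted p = 0.00187).

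Tm7sf2 and Lbr encode sterol reductases that catalyse the same step. Tm7sf2 was at 14.2, 14.0, 13.9, 13.4 and 15.9 TPM in mock and at 10.6, 11.7 and 12.8 TPM in CAC libraries, so the groups did not overlap. It fell by 0.26 (SE 0.08, adjusted p = 0.036). Lbr, which is also an anchor of chromatin in the inner nuclear membrane, was at 8.22, 7.77, 7.53, 7.54 and 8.59 TPM in mock and at 7.86, 8.99 and 10.6 TPM in CAC libraries. Its log2 fold change was 0.18 (SE 0.08, adjusted p = 0.173), which did not pass, and the difference between these genes was not tested.

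Msmo1, the methylsterol monooxygenase, was at 48.0, 45.8, 43.0, 38.3 and 46.5 TPM in mock and at 24.9, 32.7 and 39.0 TPM in CAC libraries. The highest CAC library exceeded the lowest mock library, and Msmo1 fell by 0.50 (SE 0.08, adjusted p = 5.08e-05), with a mean 29.3% lower. Nsdhl, the dehydrogenase that acts with it in removing methyl groups, was at 27.6 ± 2.48 TPM in mock and 21.8 ± 2.64 TPM in CAC libraries, and it fell by 0.33 (SE 0.08, adjusted p = 0.00463). Hsd17b7, the reductase of the same series of reactions, stood at 12.7 ± 1.08 and 12.8 ± 1.05 TPM and was not called (interval of the log2 fold change -0.13 to 0.14). Ebp, the isomerase that follows, was not called either at -0.04 (interval -0.18 to 0.11). Sc5d, the desaturase near the end of the path, was at 46.5, 44.8, 47.9, 42.8 and 44.0 TPM in mock and at 29.8, 34.3 and 38.9 TPM in CAC libraries. It did not overlap and fell by 0.39 (SE 0.07, adjusted p = 0.000143). Dhcr7, the reductase that turns dehydrocholesterol into cholesterol, was at 25.8, 31.3, 27.3, 23.1 and 29.4 TPM in mock and at 19.0, 20.2 and 26.6 TPM in CAC libraries. The highest CAC library lay inside the mock range, and Dhcr7 fell by 0.36 (SE 0.07, adjusted p = 0.000701).

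Of the genes that sense and carry sterols, Srebf2 itself was lower. It was at 137, 138, 141, 128 and 127 TPM in mock and at 94.4, 114 and 126 TPM in CAC libraries. The groups just failed to overlap, and Srebf2 fell by 0.27 (SE 0.07, adjusted p = 0.00684). Srebf1, which encodes SREBP1, a factor more tied to fatty acid synthesis, went the other way, from 28.4, 31.7, 29.3, 31.6 and 34.9 TPM in mock to 29.5, 37.4 and 41.5 TPM in CAC libraries. The groups overlapped, and Srebf1 rose by 0.25 (SE 0.07, adjusted p = 0.0207). Scap, the escort of SREBP proteins, was not called at 0.06 (interval -0.04 to 0.16), nor was Insig2 at 0.04 (interval -0.11 to 0.18). Insig1, a known target of SREBP2, stood at 58.5 ± 5.52 TPM in mock and 51.5 ± 5.65 TPM in CAC libraries and did not pass at -0.18 (SE 0.10, adjusted p = 0.26). Stard4, a carrier of cholesterol between membranes, did not pass at -0.26 (SE 0.09, adjusted p = 0.0781).

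The isoprenoid branch is fed by the same mevalonate enzymes. Ggps1, which makes geranylgeranyl diphosphate, was at 35.5, 35.6, 38.7, 33.3 and 32.8 TPM in mock and at 32.6, 36.5 and 41.7 TPM in CAC libraries. The CAC libraries spanned the whole mock range, and the log2 fold change was 0.07 (interval -0.07 to 0.22). Dhdds and Nus1, the subunits of the enzyme that starts dolichol, were at 0.12 (interval 0.02 to 0.21, adjusted p = 0.123) and 0.09 (interval -0.03 to 0.21). Coq2, which attaches the tail of coenzyme Q to its ring, was at -0.06 (interval -0.24 to 0.11). Pdss1 and Pdss2 were at -0.03 (interval -0.30 to 0.24) and 0.11 (interval -0.01 to 0.23). None of these 6 intervals reaches down to the values of Mvd, Idi1 or Hmgcs1, the mevalonate genes with the largest falls. Those of Coq2 and Pdss1 do cover the values of Fdps, Mvk, Acat2 and Pmvk (-0.19, -0.16, -0.15 and -0.12). Among the sterol genes, the values of Sqle, Cyp51, Msmo1, Nsdhl, Sc5d and Dhcr7 lie below all 6 intervals. The intervals of Ggps1, Coq2 and Pdss1 cover the values of Fdft1, Lss, Hsd17b7 and Ebp (0.08, -0.04, 0.005 and -0.04). That of Pdss1 also covers the value of Tm7sf2 (-0.26). The difference between branches was not itself tested.

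Of the 31 members 5 had every CAC library below every mock library, where 1.77% of all tested genes did so. These were Hmgcs1, Mvd, Tm7sf2, Sc5d and Srebf2, all among the 12 fallen genes. The CAC libraries differed among themselves. Over the 11 fallen enzymes replicate 1 was the lowest library in 8 and among the 2 lowest in 10, and replicate 6 among the 2 lowest in 6. Replicate 3, the library with high erythroid genes, was the highest in 10 of the 11 and inside the mock range in 7. Without the 5 libraries that stood apart 14 members fell and 1 rose. When each of the 12 libraries was left out in turn, 10 of the 13 calls held every time. The call of Fdps was lost without mock replicate 1, 2 or 3 or CAC replicate 1, 2 or 6 (adjusted p up to 0.0886), and that of Tm7sf2 without mock replicate 1, 2, 3 or 5 or CAC replicate 1, 4, 6 or 7 (up to 0.133). Srebf1 lost its call without mock replicate 1 or 3 or CAC replicate 1 (up to 0.0791), with only the groups compared in the fit (adjusted p = 0.0655) and with the replicate block (adjusted p = 0.0613). With the replicate block 10 members fell and 0 rose, and Fdps (adjusted p = 0.0846) and Tm7sf2 (0.132) lost their calls too. Fdps also lost its call with only the groups compared in the fit (adjusted p = 0.0642).

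Hmgcs1, Mvd and Sc5d, enzymes whose CAC and mock libraries did not overlap, and Ggps1, an isoprenoid enzyme that was not called, are shown with the 250 bases before their start sites, since SREBP proteins bind near the start of sterol genes, often beside an NF-Y box. The sequences are from RefSeq in the GRCm38.p6 build, 5′ to 3′ on the strand of the gene, at chr13:119690101-119690350 (plus strand), chr8:122443423-122443672 (minus), chr9:42264301-42264550 (minus) and chr13:14063489-14063738 (minus). Capitals mark the sterol regulatory element TCACNCCAC and the NF-Y box CCAAT, each searched on both strands, so that ATTGG is the box on the other strand.
Hmgcs1: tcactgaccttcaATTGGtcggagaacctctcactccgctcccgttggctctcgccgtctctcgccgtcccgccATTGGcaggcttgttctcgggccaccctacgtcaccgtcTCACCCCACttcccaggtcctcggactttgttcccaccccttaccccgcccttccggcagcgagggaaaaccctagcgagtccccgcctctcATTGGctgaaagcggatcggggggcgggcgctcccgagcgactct
Mvd: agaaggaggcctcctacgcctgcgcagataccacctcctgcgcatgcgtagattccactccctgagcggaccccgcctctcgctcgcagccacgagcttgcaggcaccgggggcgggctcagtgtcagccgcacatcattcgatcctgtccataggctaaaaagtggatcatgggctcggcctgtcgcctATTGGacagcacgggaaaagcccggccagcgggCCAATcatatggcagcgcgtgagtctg
Sc5d: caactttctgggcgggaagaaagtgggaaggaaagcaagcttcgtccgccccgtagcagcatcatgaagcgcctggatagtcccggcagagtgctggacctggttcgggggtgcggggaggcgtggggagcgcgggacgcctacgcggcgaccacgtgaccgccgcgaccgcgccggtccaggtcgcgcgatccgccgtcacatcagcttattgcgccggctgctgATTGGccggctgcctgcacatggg
Ggps1: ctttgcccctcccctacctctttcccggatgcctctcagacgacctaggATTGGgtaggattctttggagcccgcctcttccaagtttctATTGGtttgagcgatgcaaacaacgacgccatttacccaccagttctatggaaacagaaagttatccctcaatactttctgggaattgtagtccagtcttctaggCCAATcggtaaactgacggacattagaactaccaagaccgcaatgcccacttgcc
The Hmgcs1 window holds the sterol element 1 time, starting 137 bases before the start site, and 3 NF-Y boxes. Mvd holds 2 boxes, Sc5d holds 1 and Ggps1 holds 3. All 4 windows shown lie wholly before the start of the gene in GENCODE vM21. Tm7sf2, an enzyme that likewise had no overlap, is not shown, and its matched window holds 1 box and no sterol element.

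Promoters were found for 27 of the 31 members, and Fdps, Fdft1, Sqle and Stard4 were not matched. With these letters the sterol element was in 1 of the 27, which is Hmgcs1, and in 1.05% of 32851 promoters of the same length. Forms of the element that differ in a letter were not searched, so other members may hold such a form. The NF-Y box was in a promoter of 22 of the 27 members and in 65.7% of their 35 promoters, against 33.9% of all promoters. The GC box GGGCGG was likewise in 22 of the 27 and in 71.4% of the 35, against 32.7%. None of the marked sterol elements and NF-Y boxes overlapped in a member. Ggps1, which was not called, holds as many NF-Y boxes in this window as Hmgcs1. The isoprenoid genes Dhdds and Nus1 hold 2 each, and Coq2, Pdss1 and Pdss2 hold 0. Of the mevalonate and sterol enzymes with a matched promoter Acat2 alone holds 0. A link between these boxes and the falls was not tested.

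NCAC libraries were set against the same mock libraries at 8 weeks, and 0 of the 31 genes were called, as was true of all tested genes (0%). By limma 1 member, Sc5d, was at an unadjusted p under 0.05, and voom called 0. Hmgcs1 was at 252, 256, 225, 238 and 265 TPM in NCAC libraries, with a log2 fold change of -0.08 (interval -0.26 to 0.09). Idi1 stood at -0.09 (interval -0.29 to 0.11), Msmo1 at -0.08 (interval -0.26 to 0.09) and Srebf1 at -0.02 (interval -0.18 to 0.14). The lower bound for Hmgcs1 lies above its value in CAC against mock, as do those for Idi1 and Msmo1.

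Against NCAC libraries 11 members changed at 8 weeks, 10 lower and 1 higher, where 1.64% of all tested genes fell and 4.39% rose (6.02% either way). The CAC libraries are those already compared with mock. Dhcr7 fell by 0.40 (SE 0.07, adjusted p = 0.000181) and Hmgcs1 fell by 0.52 (SE 0.08, adjusted p = 2.83e-05). Acat2, which had not passed against mock, was at 64.1, 61.0, 67.3, 58.8 and 60.5 TPM in NCAC and at 46.2, 54.8 and 57.3 TPM in CAC libraries. It did not overlap and fell by 0.22 (SE 0.05, adjusted p = 0.00784). Hmgcs1 and Mvd were the other members without overlap, where 0.476% of all genes had none in this direction. Srebf2 did not pass against NCAC at -0.15 (SE 0.07, adjusted p = 0.179), nor did Fdps at -0.16 (adjusted p = 0.0819) or Tm7sf2 at -0.21 (adjusted p = 0.122). Srebf1 rose by 0.27 (SE 0.07, adjusted p = 0.0152), with an adjusted p of 0.0577 under TMM scaling, and lost its call without NCAC replicate 4 or 5 (up to 0.114). Under TMM scaling 12 members fell and 0 rose. Cyp51 lost its call without NCAC replicate 1 (adjusted p = 0.055), and Sc5d without CAC replicate 1 or 6 or NCAC replicate 1, 2 or 5 (up to 0.106). With only these groups in the fit 4 members were called. In this comparison 5 of 12 mature oligodendrocyte markers fell (median -0.34), 2 of 6 endothelium markers rose, and of 10 astrocyte markers 3 rose and 1 fell. With the oligodendrocyte level as a term 7 members were called, and Acat2 (adjusted p = 0.104), Sqle (0.057), Cyp51 (0.107), Nsdhl (0.0748) and Sc5d (0.297) lost their calls. The part of the endothelium markers was not tested.

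**Figure D2:**
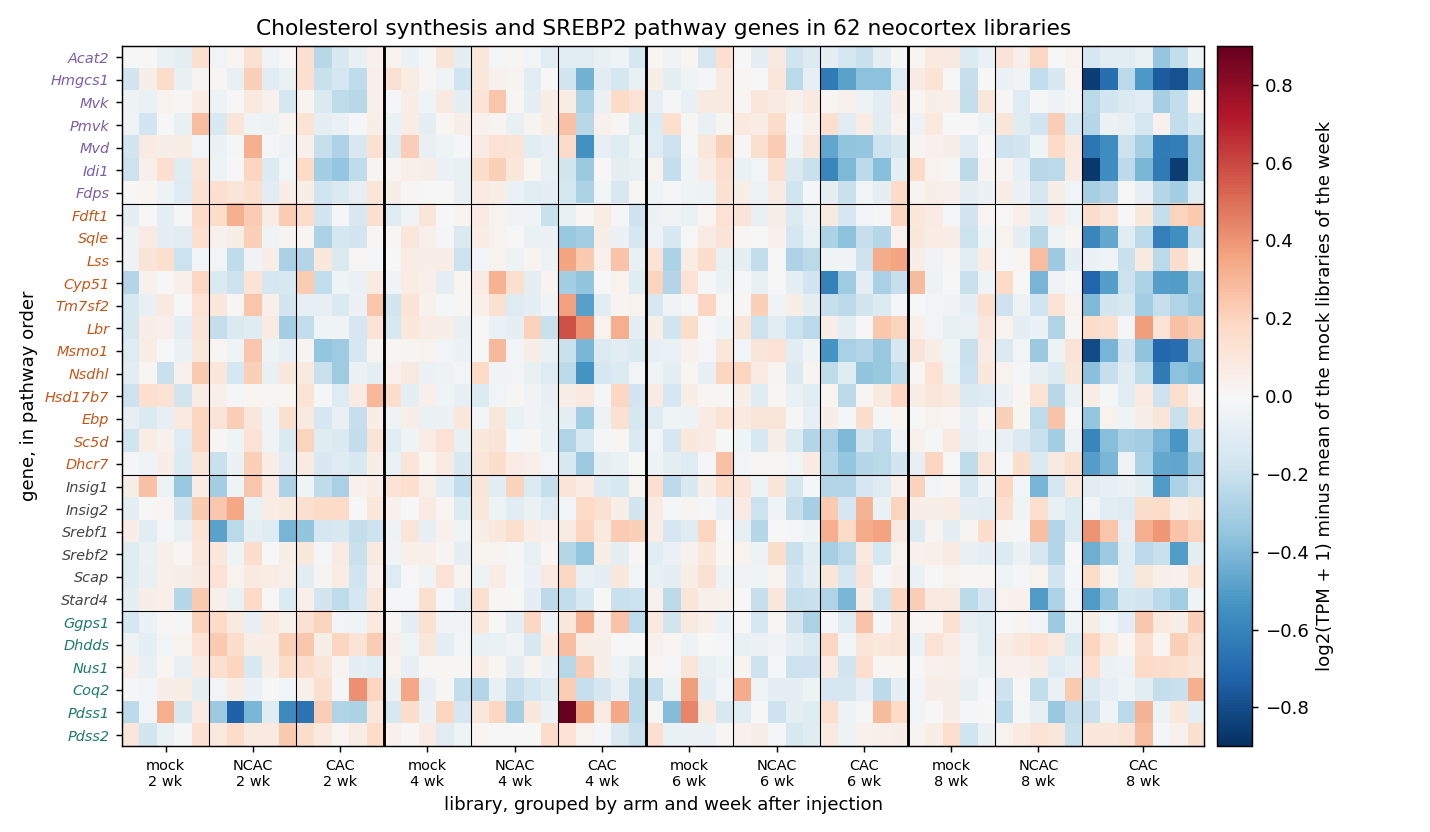
Difference in log2(TPM + 1) of each gene (vertical, in pathway order) from the mean of the mock libraries of the same week, in each of 62 libraries (horizontal, by arm and week), with blue for lower and red for higher, and values past the ends of the scale in the end colour. Blue fields gather in the mevalonate and sterol genes of CAC at 8 weeks and, paler, of CAC at 6 weeks, where the isoprenoid genes show no such block.

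Markers of mature oligodendrocytes, the myelin-forming cells, were also lower in CAC libraries at 8 weeks. Of 12 markers 4 fell, among them Opalin by 1.22, Ugt8a by 0.72 and Aspa by 0.29, and the median over the list was -0.26. Their summed level was 1743 to 2577 TPM (median 2094) in CAC, 2149 to 2607 TPM (median 2399) in mock and 2327 to 2880.4 TPM (median 2574) in NCAC libraries, and 0 of the 12 were at 0 TPM. With the mean level of this list as a term in the fit, 9 members fell and 1 rose, and Hmgcs1 stood at -0.54, Idi1 at -0.46 and Msmo1 at -0.43. Under that term Srebf2 (adjusted p = 0.0741), Fdps (0.161) and Tm7sf2 (0.166) lost their calls. Of 8 microglia markers 3 fell, and their summed level was 429 to 576 TPM (median 548) in CAC and 555 to 1048 TPM (median 588) in mock libraries, and the part of this in the members' values was not tested. Of 8 oligodendrocyte precursor markers 1 fell, of 10 astrocyte markers 2 fell and 2 rose, of 6 inhibitory neuron markers 1 fell, and of 9 excitatory neuron markers 0 were called. Of 6 endothelium markers 1 rose, with summed levels of 214 to 338 TPM (median 269) in CAC and 208 to 225 TPM (median 217) in mock libraries. Of 6 choroid plexus markers 0 were called, with a median of -0.72 and summed levels of 61.1 to 2499 TPM (median 161) in CAC and 578 to 2396 TPM (median 1017) in mock libraries. The part of these last lists in the members' values was not tested. With an astrocyte term 12 members fell and 1 rose. In bulk tissue fewer cells of a type and less RNA per cell cannot be told apart.

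At 6 weeks 2 of the 31 genes were lower in CAC than in mock libraries and 0 were higher, where 0.428% of all tested genes fell and 1.2% rose (1.63% either way). Hmgcs1 was at 254, 232, 239, 242 and 259.6 TPM in mock and at 157, 176, 189.5, 189.8 and 227 TPM in CAC libraries, without overlap, and fell by 0.39 (SE 0.09, adjusted p = 0.0085). Msmo1 was at 40.7, 41.1, 44.1, 42.5 and 46.0 TPM in mock and at 29.4, 34.7, 35.6, 33.6 and 38.5 TPM in CAC libraries. It too had no overlap and fell by 0.32 (SE 0.09, adjusted p = 0.0498). Nsdhl and Dhcr7 also had every CAC library below every mock library, at -0.25 (adjusted p = 0.116) and -0.26 (adjusted p = 0.0687), which makes 4 of 31 without overlap against 1.05% of all genes. Idi1 at -0.34 (adjusted p = 0.0625) and Srebf1 at 0.25 (adjusted p = 0.0789) did not pass.

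Single libraries decided the calls at 6 weeks. Hmgcs1 had an adjusted p of 0.089 without CAC replicate 1, and Msmo1 lost its call in 8 of 10 such fits, namely without mock replicate 1, 2, 3, 4 or 5 or CAC replicate 1, 2 or 4 (up to 0.269). The 2 calls became 0 without CAC replicate 1, 1 without mock replicate 1, 3, 4 or 5 or CAC replicate 2 or 4, 4 without CAC replicate 3 and 5 without CAC replicate 5. There were 4 under TMM scaling and under voom, 3 with the replicate block and 5 without the libraries that stood apart. Mature oligodendrocyte markers had a median log2 fold change of -0.31 with 2 of 12 called lower at this week, and with their level as a term 0 members were called, with Hmgcs1 at -0.31 (adjusted p = 0.119). Endothelium markers summed to 224 to 281 TPM (median 275) in CAC and 198 to 219 TPM (median 200.2) in mock libraries at 6 weeks, without overlap, and their part in the members' values was not tested. An interaction test of 6 against 8 weeks in the CAC to mock contrast called 0 members by limma, with 0 members below an unadjusted p of 0.05, 0 called by voom, and 0% of all genes called. For Hmgcs1 that change was -0.21 (interval -0.45 to 0.03).

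Against NCAC at 6 weeks 5 members fell and 3 rose, where 1.6% of all tested genes fell and 8.05% rose (9.65% either way). Mvd was at 27.5, 30.2, 32.1, 26.6 and 29.4 TPM in NCAC and at 19.5, 21.1, 21.2, 23.9 and 24.6 TPM in CAC libraries. It had no overlap, as had Msmo1, Dhcr7 and 1.48% of all genes, and fell by 0.39 (SE 0.10, adjusted p = 0.0101). Hmgcs1 fell by 0.35, Msmo1 by 0.33, Nsdhl by 0.29 and Dhcr7 by 0.27. Srebf1 was at 30.2, 26.5, 31.9, 31.5 and 30.8 TPM in NCAC and at 40.2, 36.0, 40.3, 41.3 and 33.8 TPM in CAC libraries. All CAC libraries were higher, as they were for Dhdds and 5.26% of all genes, and Srebf1 rose by 0.33 (SE 0.08, adjusted p = 0.00715). Insig2 rose by 0.24 (SE 0.08, adjusted p = 0.0443) and Dhdds rose by 0.17 (SE 0.05, adjusted p = 0.0356). Under TMM scaling, which lowered the median of all genes from 0.08 to 0.01, 7 members fell and 1 rose, with Insig2 at 0.15 (adjusted p = 0.113) and Dhdds at 0.08 (adjusted p = 0.333). The 8 calls became 1 without CAC replicate 1, 5 without NCAC replicate 2 and 4 without NCAC replicate 5, and 1 with the oligodendrocyte term, a list of which 6 of 12 markers fell here (median -0.28). Of the 8 calls that of Srebf1 held whichever library was left out. Dhdds lost its call in 7 of the 10 fits (up to 0.111), Insig2 in 6 (up to 0.155), Nsdhl in 5 (up to 0.0729) and Dhcr7 in 2 (up to 0.065). Hmgcs1, Msmo1 and Mvd lost theirs without CAC replicate 1 alone.

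**Figure D3:**
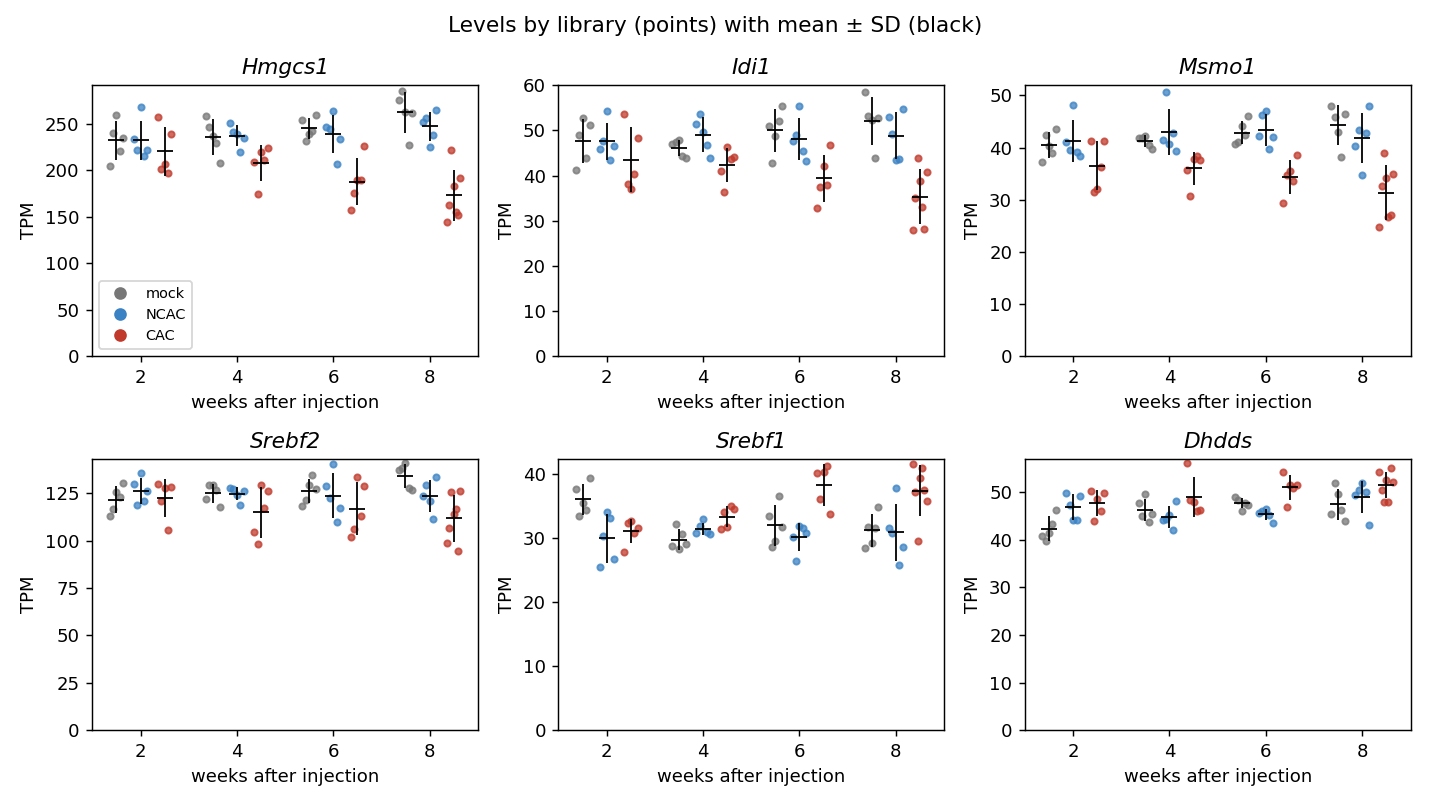
Level in TPM (vertical axes) of 6 genes at 2, 4, 6 and 8 weeks (horizontal axes) in each library of mock, NCAC and CAC, with mean ± SD. Hmgcs1, Idi1 and Msmo1 are lowest in CAC at 8 weeks, and Srebf1 of CAC lies below mock at 2 weeks and mostly above it at 6 and 8 weeks.

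At 4 weeks 0 of 31 were called in CAC against mock by limma, while 6 had an unadjusted p under 0.05 and voom called 0, and 0.0414% of all genes were called. Msmo1 was the single member without overlap, at 41.8, 41.9, 42.3, 40.6 and 39.7 TPM in mock and 35.7, 30.8, 37.8, 38.4 and 37.7 TPM in CAC libraries, where 0.235% of all genes had none in this direction and 0.635% in the other. Its log2 fold change was -0.19 (SE 0.09, adjusted p = 0.342). All mock libraries of this week were on lane 4 and all CAC libraries on lane 3, so lane and arm cannot be told apart within the week. With lane as a term in the fit of all groups 0 members were called. Only NCAC at 4 weeks held both lanes, with 1 library on lane 4. The lane term rests on that library and cannot separate lane from arm. In CAC against NCAC limma called 0 members and voom 0, 9 had an unadjusted p under 0.05, and 0.0069% of all genes were called. Leaving out CAC replicate 5 gave 1 call against mock and 2 against NCAC, and leaving out CAC replicate 3 gave 1 against NCAC.

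At 2 weeks the 1 member called in CAC against mock was Dhdds, where 3.68% of all genes rose and 0.6% fell (4.28% either way). It was at 40.9, 39.8, 41.5, 43.3 and 46.4 TPM in mock and at 50.2, 44.0, 48.6, 46.1 and 49.9 TPM in CAC libraries, which overlap, and rose by 0.17 (SE 0.05, adjusted p = 0.0472). The call was lost without mock replicate 1, 2 or 3 or CAC replicate 1, 3 or 5 (adjusted p up to 0.145), under TMM scaling (0.0896), with no filter on level (0.062), under voom (0.138), and with the oligodendrocyte (0.0517) or the astrocyte (0.438) level as a term. In the same comparison 4 of 9 excitatory neuron markers rose (median 0.43), while 2 of 6 endothelium, 1 of 10 astrocyte and 1 of 8 oligodendrocyte precursor markers fell. Excitatory neuron markers summed to 2624 to 3171 TPM (median 2859.6) in CAC and 1640.5 to 2885 TPM (median 2584) in mock libraries, and their part in the Dhdds value was not tested. Srebf1 was at 37.6, 33.5, 35.5, 34.3 and 39.3 TPM in mock and at 27.9, 32.3, 32.6, 30.9 and 31.5 TPM in CAC libraries. It had every CAC library below every mock library, as had 1.16% of all genes (3.04% had every one above), but did not pass at -0.21 (SE 0.08, adjusted p = 0.101).

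NCAC at 2 weeks had 1 called member, Srebf1, where 2.84% of all genes fell and 5.87% rose (8.71% either way). Srebf1 was at 25.5, 30.3, 34.0, 33.2 and 26.7 TPM in these libraries, whose highest value lay inside the mock range, and fell by 0.27 (SE 0.08, adjusted p = 0.031). That call was lost without mock replicate 1 or 5 or NCAC replicate 1, 2 or 5 (up to 0.113), without the libraries that stood apart (0.0531), with only the groups compared (0.125) and with the astrocyte level as a term (0.175). Here 4 of 9 excitatory neuron markers (median 0.44) and 2 of 6 choroid plexus markers (median 1.54) rose, and 4 of 6 endothelium markers (median -0.40) and 1 of 8 oligodendrocyte precursor markers fell. Endothelium markers summed to 153 to 231 TPM (median 184) in NCAC and 226 to 264 TPM (median 240.0) in mock libraries, and choroid plexus markers to 109 to 2446 TPM (median 1285) and 61.5 to 1193 TPM (median 183). The part of these neuron, endothelium and choroid plexus markers in the Srebf1 value was not tested. The count of 1 was 0 without NCAC replicate 1, 2 or 5, 4 without NCAC replicate 4 and 2 without NCAC replicate 3 or mock replicate 4 or 5. Between CAC and NCAC at 2 weeks limma called 0 members and voom 0, while 3 had an unadjusted p under 0.05, and 0% of all genes were called.

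In NCAC against mock at 4 and at 6 weeks limma called 0 members and voom 0, and 0 had an unadjusted p under 0.05, with 0% of all genes called. In mock libraries from 4 to 8 weeks limma called 0 members and voom 0, while 2 had an unadjusted p under 0.05, and 0% of all genes were called. Of the 31 members 3 had a value below 0 there, with a median of 0.09 against 0.07 over all genes, and under TMM scaling 14 were below 0. Hmgcs1 was at 0.15 (interval -0.02 to 0.33) and Idi1 at 0.17 (interval -0.03 to 0.37) in that comparison.

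An interaction test of 2 against 8 weeks in the CAC to mock contrast called 2 members, where the difference became more negative in 0.711% of all genes and more positive in 0.607% (1.32% either way). For Hmgcs1 it moved by -0.53 (SE 0.12, adjusted p = 0.015), and for Srebf1 by 0.46 (SE 0.11, adjusted p = 0.0188). Sc5d at -0.36 (adjusted p = 0.0571) did not pass. Without CAC 2 week replicate 1 neither passed, Hmgcs1 having an adjusted p of 0.0575. Srebf1 also lost its call without mock 8 week replicate 3 or mock 2 week replicate 5, the library with high pituitary and hypothalamus genes (up to 0.0605). At 2 weeks Srebf1 was below the same mock libraries in NCAC (-0.27) as in CAC (-0.21). Mock averaged 36.1 TPM of Srebf1 at 2 weeks, on lane 3, and 31.2 TPM at 8 weeks, on lane 4. The part of the mock level in this change was not tested. There were 5 calls without CAC 8 week replicate 3, 9 without the libraries that stood apart and 0 with an astrocyte term.

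By the mean over the genes of each branch, CAC libraries at 8 weeks lay lowest in the mevalonate steps. By the median fold change over genes, given above, the sterol branch was the lowest, so the order depends on the measure. The mean log2 difference over the 7 mevalonate genes was -0.47 to -0.14 (median -0.34) in CAC libraries of week 8 and -0.14 to 0.07 in mock libraries of that week. Over the 12 sterol genes it was -0.33 to -0.11 (median -0.19) in CAC and -0.14 to 0.06 in mock libraries. Over the 6 isoprenoid genes it was -0.05 to 0.18 (median 0.03) in CAC and -0.07 to 0.08 in mock libraries. In each of the 7 CAC libraries the mevalonate mean was below the isoprenoid mean, from replicate 1 with -0.47 and 0.03 to replicate 3 with -0.14 and -0.05. The same order held at 8 weeks in mock replicates 3 and 4 and NCAC replicates 2 and 3. It did not hold in mock replicates 1, 2 and 5 or NCAC replicates 1, 4 and 5 of that week. CAC replicates 2 to 5 of week 2 and 1 to 4 of week 4 had it too, so the order is not particular to CAC at 8 weeks. At 6 weeks the medians of CAC were -0.18, -0.13 and 0.05, with mevalonate means of -0.24 to -0.02 in the 5 libraries. These branch means are descriptions of members chosen with earlier results known.

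**Figure D4:**
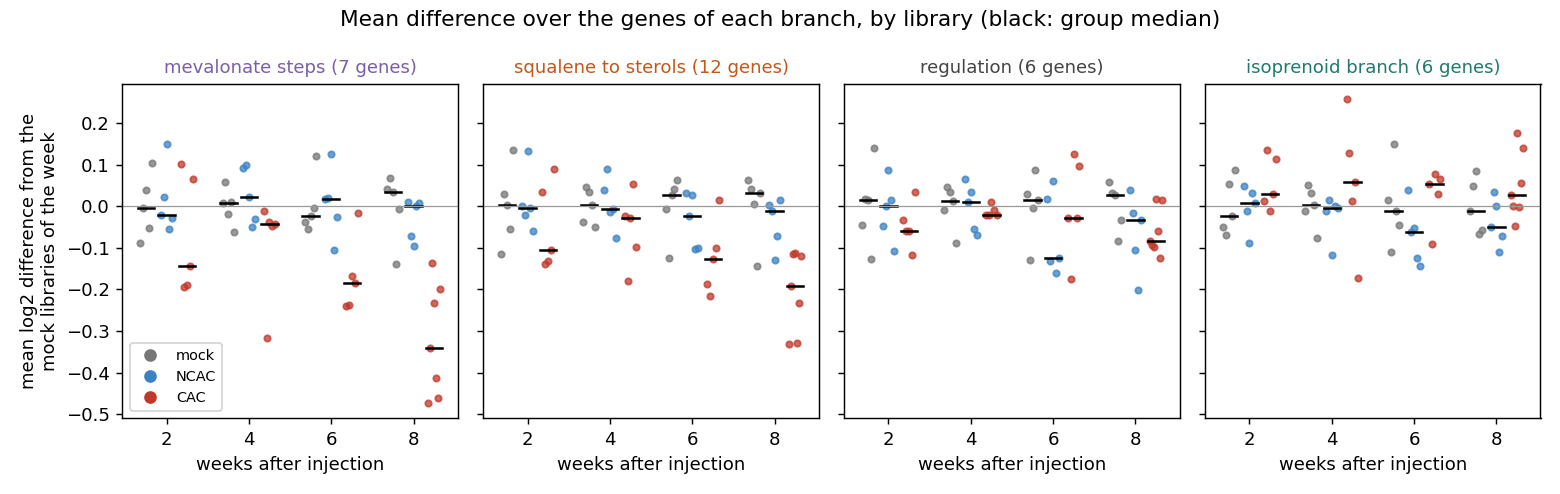
Mean log2 difference from the mock libraries of the same week (vertical axis) over the genes of each branch, for each library (points) at 2, 4, 6 and 8 weeks, with group medians as black bars. The median of CAC at 8 weeks is -0.34 for the mevalonate steps and -0.19 for squalene to sterols but 0.03 for the isoprenoid branch.

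Neighbouring pathways of lipid metabolism were counted for CAC against mock at 8 weeks. Of 10 genes of fatty acid synthesis and desaturation 6 fell and 0 rose, with a median of -0.23, where 3.69% of all tested genes fell and 4.91% rose. Scd1, a desaturase that makes oleate, fell by 0.61 (SE 0.13, adjusted p = 0.000865), Acss2, which activates acetate, fell by 0.32 (SE 0.07, adjusted p = 0.0011) and the desaturase gene Fads1 fell by 0.24 (SE 0.05, adjusted p = 0.00171). At 6 weeks 2 of the 10 fell, where 0.428% of all tested genes fell. Among 13 genes of sterol efflux and LXR targets 1 rose and 1 fell. The exporter gene Abcg1 rose by 0.24 (SE 0.06, adjusted p = 0.00716), and Npc2, a lysosomal sterol carrier, fell by 0.23 (SE 0.07, adjusted p = 0.0299). Of the genes that use isoprenoids, 0 of 9 for protein prenylation, 0 of 8 tested for coenzyme Q assembly and 0 of 8 for dolichol were called by limma, with medians of 0.02, 0.02 and 0.03.

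On GRCm38, GENCODE vM21 annotates all 31 members as protein-coding genes. Hmgcs1 lies on chromosome 13 from 119690379 to 119708260 on the plus strand, Idi1 on chromosome 13 from 8885501 to 8892451 on the plus strand and Msmo1 on chromosome 8 from 64718139 to 64733792 on the minus strand. Srebf2 lies on chromosome 15 from 82147181 to 82205379 on the plus strand and Srebf1 on chromosome 11 from 60199089 to 60222581 on the minus strand.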

How the data were processed

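Messenger RNA of neocortex, as 62 libraries in 12 groups, was sequenced after preparation with a stranded kit, per the labels' protocols, which also mention LLC cells and a time point that match none of these groups. The authors deposited a single table of TPM values whose columns each sum to 1000000. Reads were placed on mm10, as named in the submitters' processing notes. How reads were aligned, quantified and annotated, and whether counting used strand, is not given in the sources used here. Values of members that overlap antisense genes are therefore uncertain. Depth was estimated from whole-read steps: 86.2% of 205861 low values were whole within 0.05.

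The 14494 genes whose mean reached 1 TPM were transformed to log2(TPM + 1) and fitted over the 12 groups with limma 3.58.1 and statmod 1.5.0 in R 4.3.3, with moderated variances that follow the level and 50 residual degrees of freedom. Benjamini-Hochberg adjustment ran over all tested genes within each of 15 comparisons, and adjusted p under 0.05 was a call. P-values measure only the spread between these libraries. For CAC against mock at 8 weeks, simulated levels in which 200 of 14494 genes were altered were put through the same steps. Of 1.2-fold changes 46% were recovered, of 1.3-fold 62%, of 1.5-fold 86% and of 2-fold 96%. Of the calls 3.97% were false. A member that was not called may therefore still have changed by a small amount. All 31 members are named, and of neighbouring lists up to 3 called genes, those with the lowest p at 8 weeks, except for some results that are not reported here. Members, lists and tests were chosen with earlier results of these data known. No 2 libraries were identical. The 27 symbols turned into dates are not named.

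Alternatives were a pseudocount of 0.1, no filter, TMM scaling, robust moderation, the replicate block, lane at 4 weeks, a fit of the compared groups alone, and dropping each library in turn. Chosen after the data were seen were voom on estimated reads, leaving out 5 libraries that stood apart, and oligodendrocyte or astrocyte marker scores as terms.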

Additional observations from a re-analysis of the deposited data

Results flagged for a closer look

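In CAC at 8 weeks replicate 3 was at 26.6 TPM of Dhcr7, whereas the other 6 libraries were at 19.0 to 22.2 TPM, a gap that Dixon's test at 95% sets apart. It was the 1 such library among 39 groups examined (13 called members in the 3 groups of week 8), and chance alone sets apart about 1 in 20. The same library had erythroid genes higher by 4.21 log2 units, and the part of this in the Dhcr7 value was not tested.

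By the interaction test of limma, the CAC to mock contrast at 8 weeks differed from that at 2 weeks, for Hmgcs1 by -0.53 (adjusted p = 0.015) and for Srebf1 by 0.46 (adjusted p = 0.0188). Without CAC 2 week replicate 1 Hmgcs1 had an adjusted p of 0.0575, and Srebf1 had 0.0605 without mock 2 week replicate 5. The mean of Srebf1 at 2 weeks was below mock in NCAC libraries as well as in CAC libraries.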

How the results depend on the processing

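No called member changed sign under any alternative. Of 38 calls of a member in a comparison, 38 held with a pseudocount of 0.1 and with robust moderation, 37 without the libraries that stood apart, 35 under voom, 34 under TMM scaling, 33 without the filter, 32 with the replicate block, 22 with only the groups compared, 33 with the astrocyte term and 20 with the oligodendrocyte term, and 19 held whichever library was left out. Where calls were lost the cause was not tested.

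For CAC against mock at 2 weeks the count of 1 became 0 without the filter, under TMM scaling, with only the groups compared and with either marker term. At 6 weeks the count of 2 became 1 without the filter and with only the groups compared, 4 under TMM scaling and voom, 5 without the libraries that stood apart and 0 with the oligodendrocyte term. For NCAC against mock at 2 weeks the count of 1 became 3 under TMM scaling, 2 under voom, without the libraries that stood apart and with the oligodendrocyte term, and 0 with only the groups compared and with the astrocyte term. For CAC against NCAC the count of 8 at 6 weeks became 1 with the oligodendrocyte term, and that of 11 at 8 weeks became 4 with only the groups compared and 7 with the oligodendrocyte term. For the change from 2 to 8 weeks the count of 2 became 0 with only the groups compared and with the astrocyte term, and 9 without the libraries that stood apart. The terms, voom and the libraries left out as a set were chosen after the data were seen.

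With each library left out in turn, CAC against mock gave 0 to 1 calls at 2 weeks, 0 to 1 at 4, 0 to 5 at 6 and 10 to 15 at 8 weeks. NCAC against mock gave 0 to 4 at 2 weeks, and CAC against NCAC 0 to 2 at 4, 1 to 9 at 6 and 9 to 13 at 8 weeks. The change from 2 to 8 weeks gave 0 to 5.

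Whether replicate numbers pair the libraries was not settled. Of 60 same-numbered pairs within a week 19 correlated above 0.1 in their deviations (median 0.022, range -0.252 to 0.276). No value for unpaired libraries was set beside these. The replicate block gives each replicate number a single effect shared by all weeks and arms. It does not represent pairs within a week, so calls lost or kept under it do not decide the pairing. With the replicate block CAC against mock gave 1, 0, 3 and 10 calls at 2, 4, 6 and 8 weeks, NCAC against mock 1, 0, 0 and 0, and CAC against NCAC 0, 0, 9 and 8, and CAC 8 week replicates 6 and 7, which have no partner, carry no weight in it. TPM keeps no library total, so depth and the voom values rest on estimated reads.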

Other observations

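CAC 4 week replicate 2 was low in the mevalonate genes while the remaining CAC libraries of that week were near mock. Its mean over the 7 mevalonate genes was -0.32 on the log2 scale. The remaining 4 CAC libraries lay at -0.05 to -0.01, and the mock libraries at -0.06 to 0.06. Mvd was at 18.8 TPM in it and at 25.8 to 31.5 TPM in those 4, and Nsdhl at 18.6 TPM against 23.2 to 27.0 TPM.

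CAC 4 week replicate 1, the library with low striatum genes, had 10.3 TPM of Pdss1, the highest level of that gene in the 62 libraries, against 3.56 to 5.88 TPM in the remaining 4 of its group. Its Lbr level of 11.2 TPM was likewise the highest of all libraries, against 6.71 to 9.82 TPM. These libraries were picked out after their values were seen.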
